A study of Mus musculus with 6 samples.

Results

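The replication-dependent histone genes are the clustered, mostly intronless genes that supply the bulk of the histone proteins of chromatin. They were taken as every symbol of the count table that begins with Hist1h, Hist2h, Hist3h or Hist4h, without the 1 row whose symbol ends in -ps. The rule gave 67 of 24421 symbols: 54 of the Hist1 cluster on chromosome 13, 10 of Hist2 on chromosome 3, 2 of Hist3 on chromosome 11 and 1 of Hist4 on chromosome 6. By class they are 6 linker histone H1, 18 H2A, 18 H2B, 12 H3 and 13 H4 genes. RNA was sequenced from C2C12 cells, mouse myoblasts that form myotubes in low serum. The 3 shGAA libraries came from cells infected with a lentivirus carrying a short hairpin RNA against Gaa, which encodes lysosomal acid alpha-glucosidase, and the 3 shScrambled libraries from cells with a scrambled hairpin. Both groups were grown in 10% fetal bovine serum, selected with puromycin and differentiated in 2% horse serum with 4.5 g/l glucose. The titles of both groups carry the word Fed, which the labels do not explain. The labels give neither the number of hairpin sequences nor the origin of a group's 3 libraries (infections, wells or repeat preparations). All p-values thus reflect the variation among these 6 libraries alone, and that variation may be technical.

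Histone genes of this kind are transcribed in S phase, when new DNA has to be packed into nucleosomes. Their mRNAs are unusual in ending at a short stem-loop bound by the protein SLBP instead of a poly(A) tail, and they are degraded when DNA synthesis stops. Some members also make polyadenylated transcripts that run past the stem-loop in cells that have left the cell cycle. A library prepared by poly(A) selection would hold mainly the polyadenylated forms. Each library was made from 1 ug of total RNA, and whether poly(A) RNA was selected is not given in the sources used here.

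The stem-loop was found in the GENCODE M21 transcript models (build GRCm38) of 46 of the 67 genes. Its sequences are shown because they mark where a replication-dependent transcript ends. Among these genes, no form was shared between H4 and the other classes. The capitals mark the 2 arms of the stem and the lower-case letters the loop. The first form occurred in 26 genes, none of them H4, and the second in 7 genes, all of them H4. The third occurred in 6 genes of H1, H2B and H3, and the fourth in Hist1h4i and Hist2h4.
Hist1h1c and Hist3h2a: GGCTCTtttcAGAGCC
Hist1h4c and 6 other H4 genes: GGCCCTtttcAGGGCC
Hist1h1t and 5 others: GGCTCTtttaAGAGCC
Hist1h4i and Hist2h4: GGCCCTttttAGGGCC
The remaining 5 genes held 4 further forms: 1 shared by Hist1h4b and Hist1h4j, and 1 each in Hist1h4a, Hist1h3g and Hist2h2ac.

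Promoter sequences from RefSeq (GRCm38.p6, 250 bases before to 50 after the start) were at hand for 62 genes, as 63 promoters. Hist1h2bc, Hist1h3a, Hist1h3f, Hist2h2be and Hist2h4 were not in that table. The letters CCAAT, searched on both strands like all motifs here, occurred in 54 of the 63 (85.7%), against 37.4% of all 32851 promoters of the same length. They were in every H1, H2A, H2B and H3 promoter but in 3 of 12 H4 promoters. TATAAA occurred in 35 (55.6%, against 13.6% of all promoters). The octamer ATTTGCAT occurred in 7 of 18 H2A and 7 of 17 H2B promoters, in no H1, H3 or H4 promoter, and in 1.74% of all promoters. The H1 box AAACACA occurred in 5 of 6 H1 promoters, at 112 to 122 bases before the start, in 4 others of the family and in 7.18% of all promoters. The motifs do not overlap each other as written. The 250 bases before the start are shown for the H1 gene that was higher in shGAA and for the H2A gene with the most counts, with the motifs in capitals.
Hist1h1c, chr13:23738557-23738806, plus strand: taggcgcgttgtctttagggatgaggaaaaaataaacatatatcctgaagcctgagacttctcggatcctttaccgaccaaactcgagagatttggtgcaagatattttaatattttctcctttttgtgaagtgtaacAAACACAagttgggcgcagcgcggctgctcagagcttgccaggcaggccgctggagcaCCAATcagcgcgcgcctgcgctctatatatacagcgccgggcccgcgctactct
Hist3h2a, chr11:58954435-58954684, plus strand: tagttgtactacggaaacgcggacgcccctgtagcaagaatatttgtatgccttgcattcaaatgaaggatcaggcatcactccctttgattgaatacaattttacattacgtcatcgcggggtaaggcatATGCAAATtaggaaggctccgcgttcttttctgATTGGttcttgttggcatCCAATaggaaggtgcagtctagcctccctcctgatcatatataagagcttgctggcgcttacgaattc
In Hist1h1c the H1 box starts 112 bases and CCAAT 54 bases before the transcription start. In Hist3h2a the octamer lies 119 bases before the start on the opposite strand, and CCAAT starts 68 bases before it as written and 86 bases before it on the opposite strand. These are matches of letters, and binding was not measured.

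Libraries held 9224038 to 10430270 counts. Libraries of the same group differed beyond counting noise: chi-square divided by its degrees of freedom was 1.95 to 2.54 for pairs of shGAA libraries and 2.25 for shScrambled 2 and 3. The library shScrambled 1 stood apart, at 5.87 and 5.31. Levels are in CPM, read counts per library size after TMM scaling, put on a common scale. Gaa, the targeted gene, had 47.9, 47.5 and 51.9 CPM in shGAA, against 106, 124 and 119 CPM in shScrambled, a log2 fold change of -1.25 ± 0.07 (SE, edgeR's quasi-likelihood test, adjusted p = 1.09e-09). Among the 12 myotube markers found, 11 were tested. Of these 0 rose and 8 fell in shGAA, beside 18.5% of all tested genes called higher and 19.7% called lower. Summed, the 12 myotube markers had 2147 to 2335 CPM in shGAA, against 2982 to 3247 CPM in shScrambled. Leukocyte markers summed to 1.41 to 2.25 CPM in shGAA and 2.68 to 3.60 CPM in shScrambled, with 3 of 7 at 0 in every library. Endothelial markers summed to 4.39 to 5.23 CPM in shGAA and 2.46 to 4.83 CPM in shScrambled. Adipocyte markers summed to 0.320 to 0.409 CPM in shGAA and 0.107 to 0.537 CPM in shScrambled, and neural markers to 0.0940 to 0.107 CPM in shGAA and 0 to 0.107 CPM in shScrambled, with 3 of 5 at 0 in both lists. The part of these marker differences in the histone results was not tested.

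Histone RNA was scarce in these libraries and came from few genes. The 67 genes together had 1028, 978 and 1134 counts in shGAA, against 767, 877 and 843 counts in shScrambled, or 105, 104 and 107 CPM against 78.8, 94.2 and 90.0 CPM. The summed level was above every shScrambled library in each shGAA library. Only 6 genes had enough counts for the test by the filter used, and these held 93.2% of the family's counts. Hist1h1c alone gave 38.4% and Hist1h2bc 36.3%. Without these 2 genes the family summed to 24.6, 24.3 and 25.0 CPM in shGAA, against 20.9, 27.1 and 25.2 CPM in shScrambled, and the groups overlapped.

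Of the 61 genes not tested, 16 had no count in any library, 36 had 1 to 9 counts over the 6 libraries and 9 had 10 or more. The 16 at 0 were 7 H2A, 3 H2B, 4 H3 and 2 H4 genes. The 9 with 10 or more were Hist1h1b, Hist1h1d, Hist1h1e, Hist1h2ad, Hist1h2be, Hist1h2bg, Hist1h3d, Hist1h4h and Hist2h4. The highest sum among untested genes was 53 counts, in Hist1h2be, and the lowest among tested genes was 77 counts, in Hist1h4i. For comparison, 5 RNAs without a poly(A) tail that the table lists (Rmrp, Rpph1, Terc, Rnu11 and Rnu12) had 0 to 3 counts in each library.

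Most counts lay in a few genes with long transcript models. In 23 genes the model runs over 100 bases past the stem-loop, and these held 3136 counts over the 6 libraries, with a median of 6 counts per gene and 3 tested genes. In another 23 genes the model ends within 100 bases of the stem-loop, and these held 80 counts, with a median of 2 and 0 tested genes. The 21 genes without a stem-loop in the model held 2411 counts, with a median of 2 and 3 tested genes. Among those 21, the 6 with a model of 500 bases or more held 2244 of the counts. The other 15 have models under 500 bases, and a model that stops short would not show a stem-loop. Single genes made up most of these sums. Hist1h1c held 2161 and Hist3h2a 658 of the 3136 counts, and Hist1h2bc held 2040 of the 2244.

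Most genes without a count share much of their sequence with transcripts of other genes. For each gene, the share of its 50-base stretches that also occur in transcripts of other genes on either strand was computed. Copies elsewhere and transcripts annotated over the gene itself were not separated. Where a gene is named as sharing most, its matches were counted over all its transcripts, so genes with several transcripts weigh more. For example, Gm20634 covers Hist2h3c1 on the same strand. The share was 50% or more in 34 genes, of which 1 was tested and 12 had no count. It was lower in 33 genes, of which 5 were tested and 4 had no count. The 2 sets held 218 and 5409 counts. The median share was 91.4% in the 16 genes at 0 and 29.8% in the 6 tested genes. By class it was 1.13% in H1, 73.0% in H2A, 46.9% in H2B, 62.0% in H3 and 39.5% in H4. How reads that map to several genes were counted is not given in the sources used here. A low or zero count in a gene with a high share is thus uncertain.

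**Figure D1:**
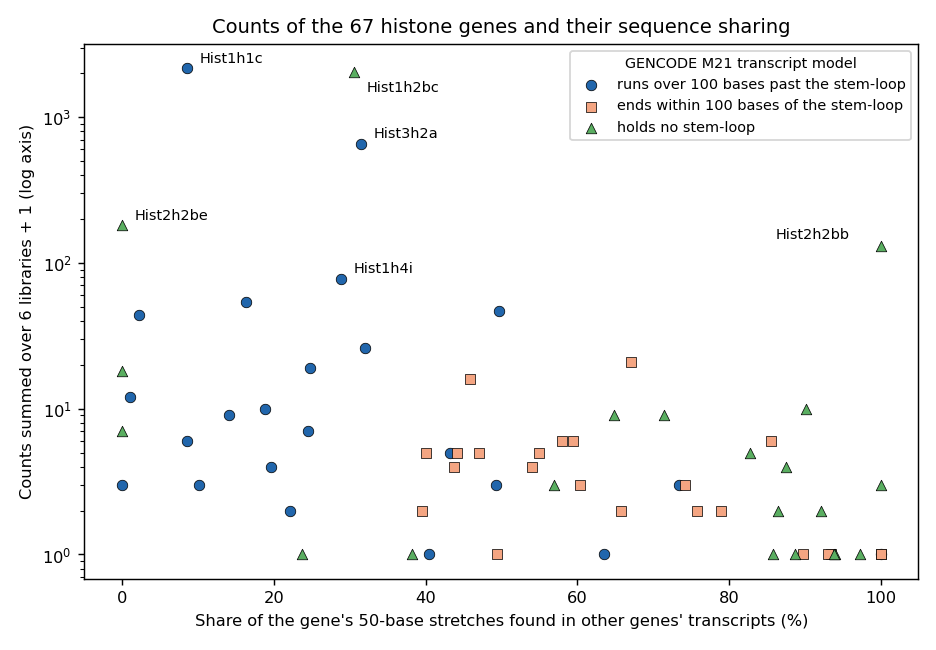
Counts of each of the 67 histone genes, summed over the 6 libraries with 1 added (log axis), against the share of the gene's 50-base stretches that occur in transcripts of other genes. Points are genes, with shape and colour giving the transcript model, and the 6 tested genes are named. The tested genes lie at shares of 0% to 31.5%, apart from Hist2h2bb at 100%, and no gene whose model ends within 100 bases of the stem-loop was tested.

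Among the 6 tested genes, Hist1h1c and Hist1h2bc were higher in shGAA, Hist2h2be was lower, and Hist3h2a, Hist2h2bb and Hist1h4i did not pass the test. A gene was called at an adjusted p under 0.05 in edgeR's quasi-likelihood test, adjusted over all 11801 tested genes. Of all tested genes 38.2% were called, 18.5% as higher and 19.7% as lower, so that nothing particular to histone genes is read from 3 calls among 6. The median log2 fold change of the 6 was -0.01, against 0.01 over all tested genes. In RNA of whole cultures, fewer cells of a type and less RNA per cell cannot be told apart.

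Hist1h1c encodes H1.2, a linker histone that binds the DNA between nucleosomes. It had 426, 390 and 439 counts in shGAA, against 263, 327 and 316 counts in shScrambled. All 3 shGAA libraries lay above all 3 shScrambled libraries, of which shScrambled 1 was the lowest. The level averaged 42.1 ± 1.22 CPM in shGAA and 32.0 ± 4.33 CPM in shScrambled (SD, n = 3 libraries each). The log2 fold change was 0.40 ± 0.09 (SE, 95% interval 0.21 to 0.59, edgeR adjusted p = 0.0021), a 1.32-fold higher level. Without shScrambled 1 it was 0.29 (edgeR adjusted p = 0.00372). Hist1h1c (Entrez 50708) is a single-exon gene, placed by RefSeq at chr13:23738807-23739531 (GRCm38.p6). The GENCODE model is longer, at 1560 bases: its stem-loop starts at base 705, 840 bases follow it, and the poly(A) signal AATAAA lies in the last 40 bases. It shares 8.54% of its stretches, most with Hist1h1d.

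The other 5 H1 genes did not have enough counts. Together they had 14, 15 and 16 counts in shGAA, against 15, 15 and 18 counts in shScrambled. Hist1h1d, which encodes the linker histone H1.3, had 8 counts in each shGAA library, against 5, 7 and 7 in shScrambled. All 6 H1 genes had at least 1 count, unlike the other classes.

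Hist1h2bc encodes a canonical H2B, one of the 4 core histones. It had 361, 360 and 429 counts in shGAA, against 301, 298 and 291 counts in shScrambled. The groups did not overlap, as was the case in 49.6% of all tested genes. The level averaged 38.5 ± 1.72 CPM in shGAA and 31.3 ± 0.586 CPM in shScrambled (SD, n = 3 libraries each). The log2 fold change was 0.30 ± 0.08 (SE, 95% interval 0.14 to 0.46, edgeR adjusted p = 0.00479), a 1.23-fold higher level, and without shScrambled 1 it was 0.29 (edgeR adjusted p = 0.00575). Hist1h2bc (Entrez 68024) lies at chr13:23684199-23692480 on the plus strand. It has 2 exons, and its model of 1156 bases holds no stem-loop. It shares 30.6% of its stretches with transcripts of 220 other genes, with the most matches in Hist1h2br, so its value is uncertain to that extent.

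Hist2h2be differs from its neighbours in kind. In mouse it encodes the H2B variant H2BE, known from olfactory neurons and made independently of replication, although its symbol follows the family's pattern. It had 27, 17 and 28 counts in shGAA, against 37, 41 and 31 counts in shScrambled, and the groups did not overlap. The level averaged 2.40 ± 0.513 CPM in shGAA and 3.84 ± 0.548 CPM in shScrambled (SD, n = 3 libraries each). It was 1.59-fold lower in shGAA, with a log2 fold change of -0.67 ± 0.24 (SE, 95% interval -1.17 to -0.16, edgeR adjusted p = 0.0355). The call did not hold in DESeq2 (adjusted p = 0.141), nor in edgeR without shGAA 2 (-0.51, adjusted p = 0.149), without shGAA 3 (-0.74, adjusted p = 0.0603) or without shScrambled 2 (-0.56, adjusted p = 0.122). Hist2h2be (Entrez 319190) lies at chr3:96221072-96223738 on the plus strand, as 1 exon. Its model of 2620 bases holds no stem-loop, ends with AATAAA in its last 40 bases, and shares 0% of its stretches with other genes.

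The other tested H2B gene, Hist2h2bb, had 21, 17 and 26 counts in shGAA, against 16, 29 and 20 counts in shScrambled, and the groups overlapped. Its log2 fold change was -0.09 ± 0.29 (SE, 95% interval -0.70 to 0.52, edgeR adjusted p = 0.824). Every 50-base stretch of its model also occurs in Gm20628, which covers it on the opposite strand, or in Gm42743, and reads from these genes cannot be told apart. The 15 untested H2B genes had 32, 26 and 27 counts together in shGAA, against 16, 10 and 22 counts in shScrambled. Of these Hist1h2bg had 13, 5 and 14 counts in shGAA, against 7, 3 and 4 counts in shScrambled. It was called, as higher in shGAA, only in fits without shGAA 2 (log2 fold change 1.40, edgeR adjusted p = 0.0426) or without shScrambled 1 (1.49, edgeR adjusted p = 0.0387). Hist1h2be had 14, 9 and 9 counts in shGAA, against 6, 5 and 10 counts in shScrambled, and the groups overlapped.

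**Figure D2:**
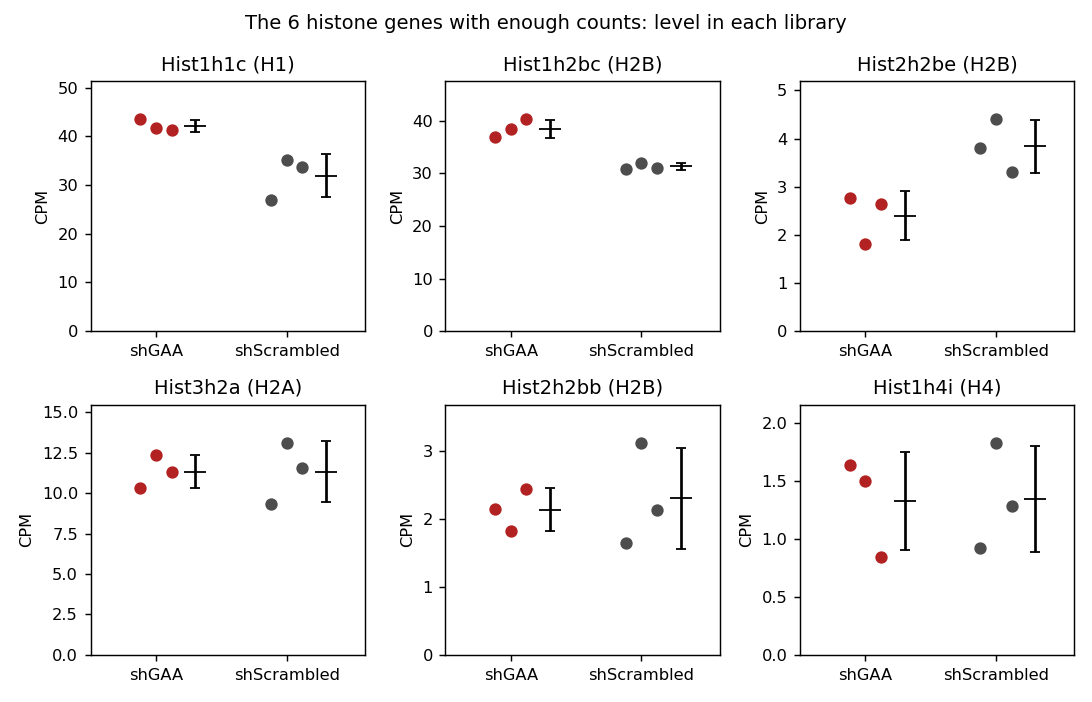
Level in CPM of the 6 tested histone genes in each library, with shGAA (red points) left of shScrambled (grey points), each axis starting at 0. Horizontal lines are means and bars the SD of 3 libraries. The 2 groups do not overlap in Hist1h1c, Hist1h2bc and Hist2h2be, and they overlap in the other 3 genes.

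Among H2A genes only Hist3h2a had enough counts. It encodes a core H2A and lies in the small Hist3 cluster, at chr11:58954685-58955192 on the plus strand (Entrez 319162). It had 101, 116 and 120 counts in shGAA, against 91, 122 and 108 counts in shScrambled. The level averaged 11.3 ± 1.03 CPM in shGAA and 11.3 ± 1.88 CPM in shScrambled (SD, n = 3 libraries each), and the groups overlapped. The log2 fold change was 0.00 ± 0.14 (SE, edgeR adjusted p = 0.997), with a 95% interval of -0.30 to 0.30. Its GENCODE model of 2146 bases runs 1643 bases past the stem-loop and ends with AATAAA in its last 40 bases. It shares 31.5% of its stretches, most with Trim17, whose exons cover 33.0% of its exonic bases on the same strand. The 17 untested H2A genes had 12, 9 and 12 counts together in shGAA, against 11, 8 and 10 counts in shScrambled.

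H3 was the class with the fewest counts, and none of its 12 genes was tested. Together they had 5, 2 and 13 counts in shGAA, against 3, 4 and 9 counts in shScrambled. Hist1h3d had the most, with 3, 2 and 8 counts in shGAA, against 0, 0 and 5 counts in shScrambled. No difference of H3 was detectable at this depth.

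H4 had 1 tested gene, Hist1h4i (Entrez 319158), at chr13:22040960-22041362 on the minus strand. It had 16, 14 and 9 counts in shGAA, against 9, 17 and 12 counts in shScrambled. Its log2 fold change was -0.03 ± 0.38 (SE, edgeR adjusted p = 0.958), with a 95% interval of -0.82 to 0.76, the widest of the 6. None of the 12 untested H4 genes passed the filter. Together they had 13, 12 and 15 counts in shGAA, against 5, 6 and 6 counts in shScrambled. The untested genes of all classes had 76, 64 and 83 counts in shGAA, against 50, 43 and 65 counts in shScrambled. In CPM the ranges of these sums overlapped, at 6.83 to 7.80 CPM in shGAA and 4.62 to 6.94 CPM in shScrambled. By gene, 24 untested genes had more counts in shGAA, 14 had more in shScrambled and 7 had equal counts above 0.

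Levels of the tested genes were also compared per kilobase of the longest GENCODE model. The counts and shares of counts given above are not scaled by length. Hist1h2bc had 33.3 CPM per kb in shGAA and 27.1 in shScrambled, and Hist1h1c had 27.0 CPM per kb in shGAA and 20.5 in shScrambled. Below them came Hist2h2bb, at 5.60 CPM per kb in shGAA and 6.03 in shScrambled, Hist3h2a, at 5.28 in both, Hist1h4i, at 1.82 in shGAA and 1.85 in shScrambled, and Hist2h2be, at 0.917 in shGAA and 1.46 in shScrambled. These values rest on the annotated lengths, and where the transcripts in these cells end was not measured.

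**Figure D3:**
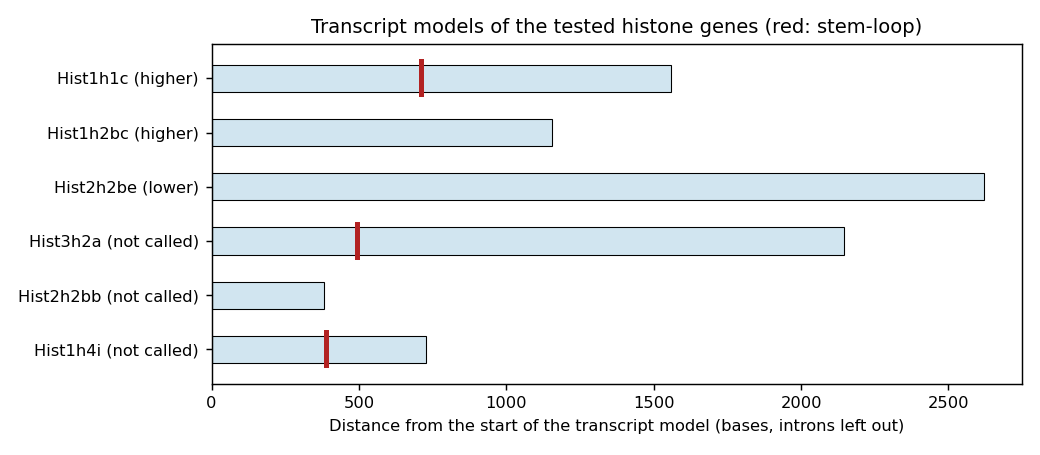
Longest GENCODE M21 transcript model of each tested histone gene, drawn to scale in bases from its start with introns left out. Red marks show the histone stem-loop, and the word beside each gene gives its call in shGAA. The models of Hist1h1c, Hist3h2a and Hist1h4i run 840, 1643 and 330 bases past the stem-loop, and the other 3 hold none. The Hist2h2bb model has 381 bases, against 493 for its RefSeq gene, so a stem-loop beyond its end would be missed.

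The replication-independent histone variants have mRNAs that are mostly polyadenylated and in most cases not confined to S phase. They summed to 1295 to 1334 CPM in shGAA, against 1323 to 1446 CPM in shScrambled. Of 11 genes, all tested, 1 rose and 4 fell in shGAA, beside 18.5% of all tested genes called higher and 19.7% called lower. The median log2 fold change of the 11 was -0.16. Cenpa, the H3 variant of centromeres, fell to 26.1, 31.7 and 34.7 CPM in shGAA, against 52.8, 58.7 and 49.95 CPM in shScrambled (log2 fold change -0.80 ± 0.10 SE, edgeR adjusted p = 1.13e-05). H2afy2, which encodes macroH2A2, rose to 11.7, 8.22 and 9.21 CPM in shGAA, against 4.73, 4.51 and 4.38 CPM in shScrambled (1.10 ± 0.17, edgeR adjusted p = 9.18e-05). In both genes the groups were well apart. H1f0, the linker histone that accumulates in differentiated cells, fell by 0.26 ± 0.06 on the log2 scale (edgeR adjusted p = 0.00175), while Hist1h1c of the same class rose. H2afz, the H2A.Z gene, fell by 0.29 ± 0.06 (edgeR adjusted p = 0.00081). H2afx, whose product is phosphorylated at DNA breaks and whose model also holds a stem-loop, fell by 0.30 ± 0.08 (edgeR adjusted p = 0.0107), a call lost without shScrambled 3 (adjusted p = 0.0587). The H3.3 genes H3f3a (0.03 ± 0.05) and H3f3b (0.07 ± 0.06) did not pass the test. H3f3b did without shScrambled 1 (0.15, edgeR adjusted p = 0.00841).

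Among 25 genes that make and process histone mRNA, 24 were tested. Of these 1 rose and 6 fell, beside 18.5% of all tested genes called higher and 19.7% called lower, with a median log2 fold change of -0.03. Slbp, the stem-loop binding protein, had 40.9, 41.3 and 41.9 CPM in shGAA, against 43.4, 38.1 and 41.6 CPM in shScrambled, and its log2 fold change of 0.01 ± 0.07 did not pass the test (edgeR adjusted p = 0.917, 95% interval -0.14 to 0.16). Npat, the coactivator at the histone locus body, did not pass either (0.18 ± 0.08, edgeR adjusted p = 0.0777), although its groups did not overlap. It passed without shScrambled 1 (0.23, edgeR adjusted p = 0.0238) and when scaled by library size alone (0.23, edgeR adjusted p = 0.028). Casp8ap2, the scaffold protein FLASH, had a log2 fold change of 0.07 ± 0.08. The U7 particle proteins Lsm10 (0.30 ± 0.12, edgeR adjusted p = 0.0528) and Lsm11 (0.15 ± 0.10, edgeR adjusted p = 0.278) did not pass.

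The 6 genes that fell were Cpsf2, a subunit of the cleavage complex, Snrpe, Snrpf and Snrpg, Sm proteins shared between U7 and the spliceosome, Eri1, an exonuclease that binds the stem-loop, and Mif4gd, which links SLBP to translation. Their log2 fold changes lay between -0.39 ± 0.07 in Snrpe and -0.31 ± 0.06 in Snrpf (SE). Snrpf shares 89.5% of its stretches, most with Ccdc38, and its value is uncertain. Zcchc6, a terminal uridylyltransferase, was the 1 gene that rose (0.34 ± 0.06, edgeR adjusted p = 0.000133). Eri1, Mif4gd and Snrpg lie outside the rule for named genes and were named after their values were seen.

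Of 22 histone chaperones and assembly factors, all tested, 4 rose and 6 fell, with a median log2 fold change of -0.07. Over all tested genes, 18.5% were called higher and 19.7% lower. The 6 that fell were Nasp, Nap1l1, Hat1, Anp32e, Ipo4 and Chaf1a. Nasp, which keeps a reserve of soluble H3 and H4, had 51.1, 48.4 and 57.0 CPM in shGAA, against 77.3, 65.9 and 66.6 CPM in shScrambled (-0.42 ± 0.08 SE, edgeR adjusted p = 0.000362). Hat1, which acetylates new H4, fell by 0.38 ± 0.07 (edgeR adjusted p = 0.000291). Chaf1a, the large subunit of the assembly factor CAF-1, fell by 0.23 ± 0.07 (edgeR adjusted p = 0.0161), a call lost in DESeq2 (adjusted p = 0.0645) and in edgeR when scaled by library size alone (adjusted p = 0.0522), without shGAA 1 (adjusted p = 0.0671) or without shScrambled 3 (adjusted p = 0.0633). It shares 49.7% of its stretches, most with Ubxn6 on the opposite strand. Asf1b, which hands H3 and H4 to CAF-1, did not pass (-0.06 ± 0.07, edgeR adjusted p = 0.543).

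The 4 that rose were Hira, Ubn1, Cabin1 and Atrx, named after their values were seen. The first 3 encode the complex that deposits H3.3 independently of replication, and ATRX deposits H3.3 together with DAXX. Hira had 59.0, 61.6 and 57.3 CPM in shGAA, against 50.3, 48.5 and 54.3 CPM in shScrambled (0.22 ± 0.07 SE, edgeR adjusted p = 0.0172). Hira shares 42.0% of its stretches, most with Gm28539, so its value is uncertain to that extent. The other 3 had log2 fold changes of 0.18 to 0.21. None of the 4 overlapped between groups, as was the case in 49.6% of all tested genes. The changes were small, and with a correction for length and GC content 1 of the 22 genes rose in place of 4. A count of 4 among 22 lies near the 18.5% of all tested genes called higher, so nothing particular to these genes is read from it. Daxx did not pass (0.10 ± 0.08, edgeR adjusted p = 0.359).

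Hist1h1c and Hist1h2bc were higher in shGAA and Hist2h2be was lower. Genes of DNA replication and S phase that passed the test were lower in shGAA. All 44 were tested, of which 20 fell, 0 rose and 24 were not called. Among all tested genes 19.7% were called lower and 18.5% higher. Of the 44 genes, 39 had a log2 fold change below 0, with a median of -0.19. Summed, they had 2218 to 2376 CPM in shGAA, against 2483 to 2861 CPM in shScrambled. Ccna2, the cyclin of S phase and G2, had 104, 96.0 and 117 CPM in shGAA, against 187, 162 and 171 CPM in shScrambled (-0.71 ± 0.07 SE, edgeR adjusted p = 2.42e-06). Tk1, the S-phase thymidine kinase, fell by 0.55 ± 0.09, Uhrf1, which maintains DNA methylation behind the fork, by 0.52 ± 0.08, and Rfc4, of the clamp loader, by 0.68 ± 0.11. Pcna, the sliding clamp, fell by 0.29 ± 0.06 (edgeR adjusted p = 0.00188), Mcm2, of the replicative helicase, by 0.32 ± 0.06, and Rrm2, of ribonucleotide reductase, by 0.23 ± 0.06. E2f1, a transcription factor of S-phase entry, did not pass (-0.07 ± 0.09, edgeR adjusted p = 0.541). Whether these and the histone values changed in the same cells was not measured.

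**Figure D4:**
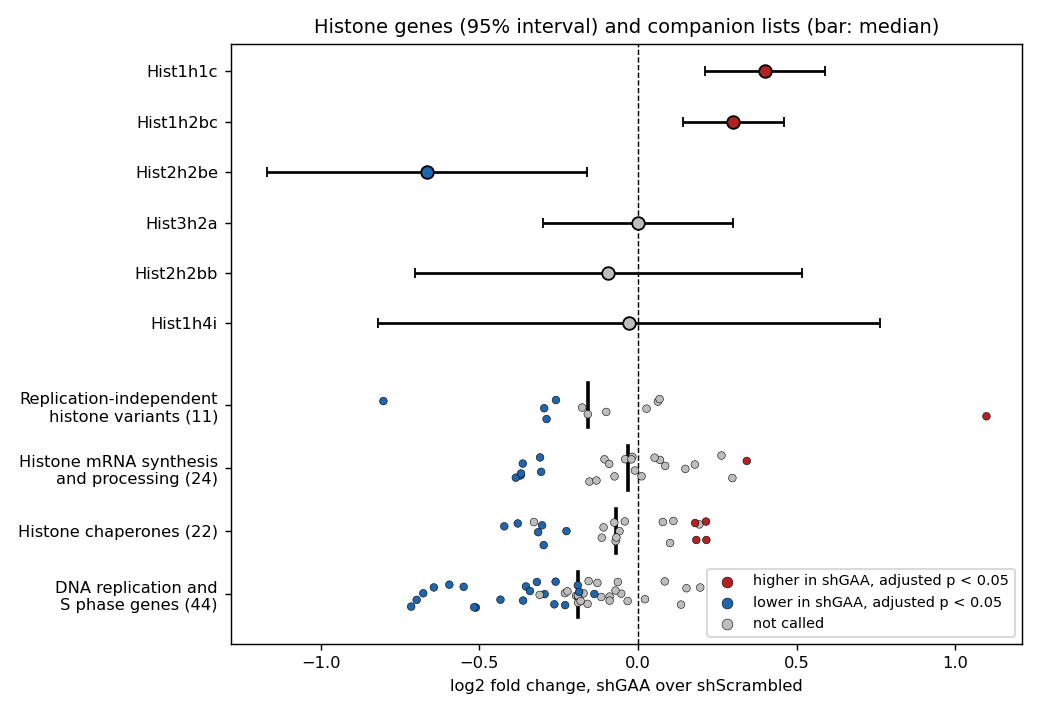
Log2 fold change, shGAA over shScrambled, of the 6 tested histone genes (large points with 95% intervals) and of the genes of 4 companion lists (small points, with the number tested in brackets and the list's median as a bar). Red points were called higher in shGAA, blue points were called lower, and grey points were not called. Hist1h1c and Hist1h2bc lie right of 0, Hist2h2be lies left of it, and the intervals of Hist3h2a, Hist2h2bb and Hist1h4i span 0. Of the 44 replication genes, 39 lie left of 0.

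Precision limited what the histone genes could show. Over all tested genes the median SE of the log2 fold change was 0.28 at 1 to 5 CPM, where Hist2h2be, Hist2h2bb and Hist1h4i lie, and 0.08 at 20 to 100 CPM, where Hist1h1c and Hist1h2bc lie. The share of genes called was 25.2% at 1 to 5 CPM and 39.8% at 20 to 100 CPM.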

How the data were processed

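The authors deposited raw read counts by gene symbol for 3 shGAA and 3 shScrambled C2C12 libraries, in 1 table. Build mm10, HISAT2 2.1.0, Subread, FastQC and edgeR are named in the submitters' processing notes. Not given in the sources used here are the gene annotation, the strand setting and how multi-mapping reads were counted. From the counts, genes were kept by filterByExpr (minimum count 10, with the group), scaled by TMM (factors 0.979 to 1.02) and tested with edgeR 4.0.16 in R 4.3.3 (robust quasi-likelihood F-test with a group term and no covariate). Benjamini-Hochberg adjustment ran over 11801 tested genes, with a call at an adjusted p under 0.05. The SE is the size of the coefficient divided by the square root of F. The code was tested on simulated data.

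The members and the companion lists were chosen with earlier results of these data known. Values were given for every called member, for the member with the most counts of each class, for a fixed set of companion genes, and for up to 4 called genes per list with the smallest adjusted p. Alternatives were library size only, DESeq2 1.42.0 and its size factors, limma-voom (limma 3.58.1), 2 other filters, a non-robust fit, a replicate block, a length and GC correction (lengths for 96.6% of tested genes) and leaving out each library. Stem-loops and shared 50-base stretches were searched in GENCODE M21 transcripts, and positions and promoters came from RefSeq (GRCm38.p6). Libraries held 9224038 to 10430270 counts, and 6 members passed the filter.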

Additional observations from a re-analysis of the deposited data

How the results depend on the processing

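The calls of Hist1h1c and Hist1h2bc as higher in shGAA held in all 16 alternatives, at log2 fold changes of 0.29 to 0.47 (adjusted p 1.83e-05 to 0.0156) and 0.27 to 0.39 (adjusted p 0.000563 to 0.0293). The number of members higher was 2 to 3 when 1 library was left out, 3 without shGAA 2 or without shScrambled 1. The number lower was 0 in DESeq2, with the replicate block and with the block and length and GC correction, and 0 to 1 when 1 library was left out. Hist2h2be ranged from -0.77 to -0.51 over the 16 alternatives (adjusted p 0.032 to 0.149), and the cause was not tested. Over all genes 2182 were higher and 2330 lower (48.4% higher), against 2809 and 1872 (60.0% higher) with library size only, and the median log2 fold change moved from 0.01 to 0.05.

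The 3 members that were tested but not called changed sign in some alternatives. Hist1h4i was 0.0174 with library size only, 0.10 with the length and GC correction, 0.10 with that correction and the block, and -0.24 to 0.25 with 1 library left out. Hist2h2bb was 0.088 with the correction, 0.10 with correction and block, and -0.29 to 0.18 with 1 library left out. Hist3h2a was -0.00037 in DESeq2 and -0.12 to 0.12 with 1 library left out. With 1 library left out, Slbp ranged from -0.0393 to 0.0524 and E2f1 from -0.146 to 0.00698.

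Higher processing genes numbered 3 with library size only, 2 with the non-robust fit, 2 with the correction, 2 with correction and block, and 1 to 2 with 1 library left out. Higher chaperones numbered 2 in DESeq2, 1 with the correction, 2 with correction and block, and 1 to 5 with 1 library left out (2 without shGAA 2, 1 without shGAA 3 and 2 without shScrambled 2). Higher variants numbered 1 to 2 and higher S-phase genes 0 to 1 with 1 library left out, the larger in each case without shScrambled 1. S-phase genes lower numbered 15 to 26 over the alternatives. Lsm10 passed in 4 alternatives (adjusted p from 0.0127).

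Deviations of libraries with the same number correlated at -0.0394, 0.0558 and -0.0109, against -0.0752 to 0.0726 for libraries with different numbers. No pairing by number was thus seen, but whether same-numbered libraries were prepared together is not given. With the replicate block 2037 genes were higher and 2197 lower, and Hist2h2be had an adjusted p = 0.0556 at -0.66. With block and correction it was -0.64 (adjusted p = 0.0566). In the main fit 61 of 67 members did not pass the filter, and the cause of their low counts was not tested.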
